A study of Mus musculus with 11 samples.

Results

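The genes described here are 8 cytochrome P450 genes of the mouse Cyp2a, Cyp2b, Cyp2d and Cyp2f subfamilies: Cyp2a5, Cyp2a12, Cyp2b10, Cyp2d9, Cyp2d10, Cyp2d22, Cyp2d26 and Cyp2f2. They were taken by symbol from the 31053 genes of the count matrices, and all 8 were found and passed the filter on low counts. Their RNA was followed by spatial transcriptomics (Visium, which captures polyadenylated RNA from a tissue section on a grid of barcoded spots wider than a cell) in 11 frozen mouse liver sections. Of these, 3 were uninjured (0 h, replicates 2, 3 and 4), and 8 came from livers injured with acetaminophen (APAP). Sections A and B were taken 24 h after APAP, another A and B after 36 h, and sections A to D after 48 h. In overdose, this painkiller destroys mainly pericentral hepatocytes, and the liver then regenerates. The study's methods describe adult C57BL/6JCrl mice, male unless stated otherwise, fasted before 1 intraperitoneal injection of APAP, and the labels name no genotype, sex or age for a section. The labels give the injured sections only as "POD" with a time. The methods give 1 mouse for each time point in this assay, so a difference between times cannot be told apart from a difference between mice, and n counts sections. P-values then measure only the spread between sections, which may be technical.

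Cytochromes P450 are haem enzymes of the endoplasmic reticulum that oxidise steroids, fatty acids, drugs and toxins with electrons passed on by P450 reductase. The Cyp2 genes lie in tandem clusters that arose by repeated duplication, so neighbours can be similar in sequence and still differ in inducers, in sex bias and in where along the liver lobule they are used. Hepatocytes around the central vein are the best known site of P450 expression, while Cyp2f2, which activates naphthalene, is a classic gene of hepatocytes around the portal tract. Cyp2a5 hydroxylates coumarin and nicotine and oxidises bilirubin, and is known for being induced by hepatotoxins. Cyp2b10 is the textbook gene induced by phenobarbital through the nuclear receptor CAR. Cyp2d9 is a steroid hydroxylase typical of male mouse liver.

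Depth was 31292663 to 67045372 UMIs (unique transcript molecules) per section over 1490 to 3466 spots. Levels are UMIs per 1000000 UMIs of the section after TMM scaling (CPM), given in the order of the sections above. Plain CPM stands for the same without TMM scaling. Fold changes, their standard errors (SE) and adjusted p-values come from edgeR's quasi-likelihood test on section sums with Benjamini-Hochberg adjustment over all 14821 genes tested, called at 0.05. All 3 comparisons with 0 h share the same uninjured sections. Off-tissue barcodes held 10.7% to 24.9% of a section's UMIs, and the 8 genes held 3116 to 4437 plain CPM there against 2902 to 4350 on tissue. RNA of these genes was thus also present on barcodes beside the tissue. The liver identity of the sections was plain, since the 7 hepatocyte markers summed to 93916 CPM or more in every section.

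The 8 genes lie in 2 clusters, and their sequences show which of them can be confused in the counts. In GRCm38, Cyp2b10 (chr7:25897620-25926624), Cyp2a5 (chr7:26835305-26843548), Cyp2a12 (chr7:27029081-27037375) and Cyp2f2 (chr7:27119909-27133660) lie on the plus strand of chromosome 7. Cyp2d22 (chr15:82370527-82380260, minus strand), Cyp2d10 (chr15:82402846-82407195, minus strand), Cyp2d9 (chr15:82433437-82456845, plus strand) and Cyp2d26 (chr15:82790101-82794294, minus strand) lie on chromosome 15. Each has 9 or 10 exons in its GENCODE vM21 reference transcript, and counts are summed over the gene. Cyp2a5 shared 98.3% of aligned transcript bases with its neighbour Cyp2a4, but in the last 500 bases, where a 3′ assay reads, 1.70% of its 90-base windows also occurred in Cyp2a4. Cyp2d9 and Cyp2d10 shared 91.8% of aligned transcript bases, but no end window. Of the Cyp2d9 end windows 7.30% occurred in transcripts of another gene (Cyp2d22 or Cyp2d41-ps), and of the Cyp2d10 end windows 3.65% did (Cyp2d11). For Cyp2d26 that share was 6.08% (Cyp2d22 or Cyp2d40) and for Cyp2a12 1.95% (Cyp2a22). No end window of the Cyp2b10, Cyp2d22 or Cyp2f2 reference transcript occurred elsewhere. Reads from these shared windows cannot be assigned to 1 gene.

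The promoters below were chosen by how their genes stood against 0 h with TMM scaling. Cyp2d9, Cyp2d10 and Cyp2f2 were lower at all 3 later times and Cyp2a5 rose at 24 h. Cyp2d26, of the same cluster as Cyp2d9 and Cyp2d10, was called at none of them against 0 h. Each promoter is the 250 bases before the RefSeq start on the gene's own strand (RefSeq, GRCm38.p6), with motif matches in capitals. These 5 were chosen from the 7 of 8 genes matched by symbol, and Cyp2d22 had no entry. The Cyp2d9 window lies inside the gene's annotated span, which also holds a transcript that starts further upstream. The GENCODE reference transcript starts before the RefSeq start, by 34 bases for Cyp2a5, 43 for Cyp2d9, 1 for Cyp2d10, 49 for Cyp2d26 and 46 for Cyp2f2. The ends of these windows thus lie inside that transcript, with the TATA box matches of Cyp2a5, Cyp2d9 and Cyp2d26.
Cyp2d9 (chr15:82452127-82452376, plus strand): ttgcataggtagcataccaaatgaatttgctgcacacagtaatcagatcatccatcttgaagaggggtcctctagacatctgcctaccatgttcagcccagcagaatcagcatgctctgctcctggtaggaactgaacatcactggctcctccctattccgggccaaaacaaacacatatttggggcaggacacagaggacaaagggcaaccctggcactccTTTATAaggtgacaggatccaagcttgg
Cyp2d10 (chr15:82407195-82407444, minus strand): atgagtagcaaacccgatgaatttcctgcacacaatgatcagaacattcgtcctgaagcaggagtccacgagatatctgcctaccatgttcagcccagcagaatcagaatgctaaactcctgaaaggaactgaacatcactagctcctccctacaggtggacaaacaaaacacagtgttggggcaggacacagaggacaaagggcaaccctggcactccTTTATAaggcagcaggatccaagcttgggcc
Cyp2d26 (chr15:82794246-82794495, minus strand): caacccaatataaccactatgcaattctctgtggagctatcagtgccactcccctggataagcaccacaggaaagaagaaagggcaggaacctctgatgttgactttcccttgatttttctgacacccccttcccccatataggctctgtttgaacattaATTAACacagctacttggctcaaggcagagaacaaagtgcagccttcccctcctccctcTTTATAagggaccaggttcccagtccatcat
Cyp2a5 (chr7:26835089-26835338, plus strand): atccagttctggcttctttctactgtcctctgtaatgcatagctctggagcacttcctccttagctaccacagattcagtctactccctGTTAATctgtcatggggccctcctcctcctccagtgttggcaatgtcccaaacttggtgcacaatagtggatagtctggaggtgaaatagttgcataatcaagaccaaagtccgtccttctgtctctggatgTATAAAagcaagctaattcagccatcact
Cyp2f2 (chr7:27119705-27119954, plus strand): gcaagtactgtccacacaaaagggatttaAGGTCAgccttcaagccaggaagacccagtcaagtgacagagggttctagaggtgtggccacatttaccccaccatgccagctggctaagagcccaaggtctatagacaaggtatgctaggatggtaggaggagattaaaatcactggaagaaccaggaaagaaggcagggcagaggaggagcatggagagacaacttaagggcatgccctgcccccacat

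The Cyp2d9 and Cyp2d10 promoters shared 85.1% of aligned bases, the highest of any pair among the 7 (296 aligned bases), whereas Cyp2d10 and Cyp2d26 shared 66.7%. The latter is within the range of pairs from different clusters, 57.8% (Cyp2a5 with Cyp2d26) to 68.5% (Cyp2a12 with Cyp2d9). These identities and the motif searches used the whole RefSeq table entries, which run on past the start, while only the bases before it are printed. The capitals mark TATAAA (the TATA box), GTTAAT (a core of sites for the liver factor HNF1) and AGGTCA (a core of nuclear receptor sites), each searched on both strands. In the Cyp2d promoters both kinds of match lay on the opposite strand and are printed as their reverse complement. The TATA box letters occurred in 5 of the 7 promoters (Cyp2a5, Cyp2a12, Cyp2d9, Cyp2d10 and Cyp2d26), against 13.6% of all 32851 promoters in the table. Its first base lay 28 to 39 bases before the RefSeq start in these 5. GTTAAT occurred in Cyp2a5 and Cyp2d26, against 7.10% of all promoters, and AGGTCA in Cyp2f2 and, after the start, in Cyp2a5, against 16.3%. None of the 7 held TTATGTAA (the D box of circadian PAR bZIP factors), TTCNNNGAA (a STAT site) or TGACNNNGC (the core of the antioxidant response element), which occurred in 0.938%, 8.30% and 12.4% of all promoters. A match describes letters and is no shown binding site, and no match says only that these letters are not in the window.

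After APAP, Cyp2f2, Cyp2d9 and Cyp2d10 were lower than in uninjured liver at all 3 times. Cyp2d22 was lower at 24 h and 48 h, Cyp2a5 rose 4.84-fold at 24 h, and with TMM scaling Cyp2d26 was called at none of the 3 times. Among the 8 genes, 5 were called at 24 h (1 higher, 4 lower, against 41.7% of all genes tested), 3 at 36 h (all lower, against 29.2%) and 6 at 48 h (all lower, against 44.2%). By direction, 23.1%, 16.8% and 23.3% of all genes were called higher at the 3 times, and 18.6%, 12.4% and 20.9% lower. The injured sections did not overlap with the uninjured ones for 7, 4 and 5 of the 8 genes, against 69%, 55.9% and 54.4% of all genes. The median log2 fold change of the 8 genes was -0.94, -0.19 and -1.16, beside 0.05, 0.05 and 0.01 over all genes tested. Summed over the 8 genes, TMM-scaled levels were 5193 to 5373 CPM at 0 h and 3146 to 3244 at 24 h. They were 3010 to 3589 at 36 h and 2489 to 2965 at 48 h. The sum was thus lower in every injured section than in every uninjured one. This order also held in plain CPM, but section 36 h A (3958) then lay close to the lowest uninjured section (4111). The lowest plain sum was 2902, in section 48 h C. The size of the fall thus depended on the scaling. TMM factors were 0.783 to 0.811 for uninjured sections and 0.983 to 1.17 for injured ones. In such section sums, fewer hepatocytes and less RNA per hepatocyte cannot be told apart.

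**Figure D1:**
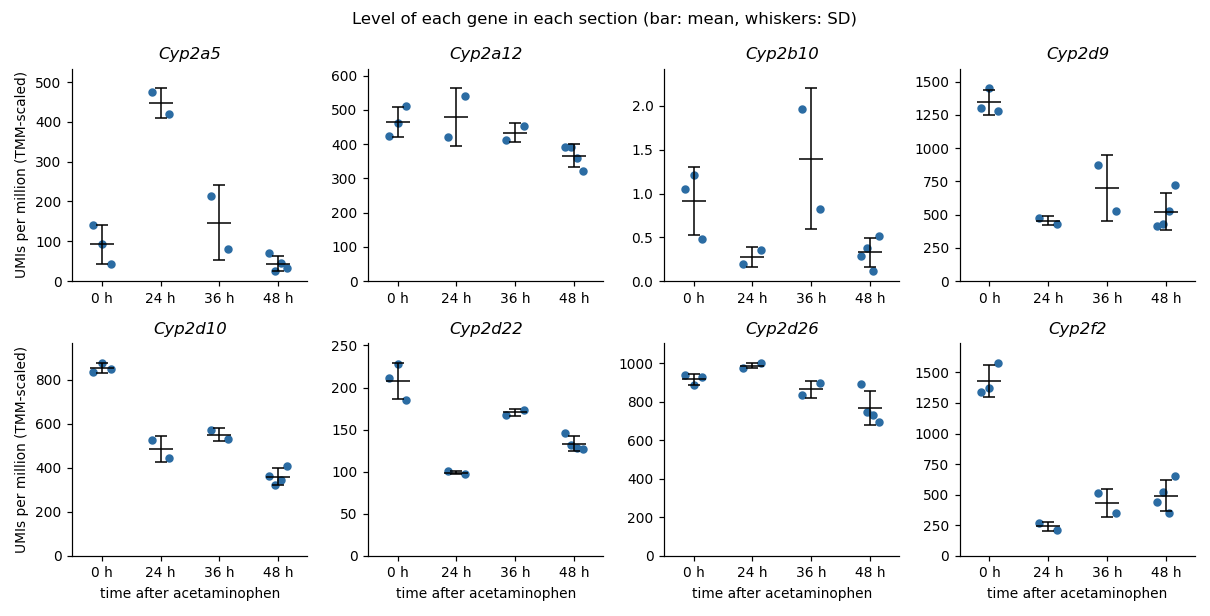
Level of each of the 8 genes in each section (y axis, TMM-scaled CPM, from 0) against time after acetaminophen (x axis), with 1 point per section, a bar at the mean and whiskers for the SD (n = 3, 2, 2 and 4 sections). Cyp2f2, Cyp2d9 and Cyp2d10 lie lower in every injured section than at 0 h, and Cyp2a5 peaks at 24 h at 420.3 and 474 CPM.

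Cyp2a5, the coumarin hydroxylase, was with TMM scaling the only one of the 8 that was called higher than 0 h at any time, while other scalings also called Cyp2a12 and Cyp2d26 higher, as given below. It stood at 141, 92.6 and 43.4 CPM in the uninjured sections. At 24 h it stood at 474 and 420.3 CPM, at 36 h at 213 and 81.2 CPM, and at 48 h at 70.8, 26.3, 44.8 and 33.9 CPM. Both 24 h sections lay above every other section, while the sections at 36 h and at 48 h overlapped with those at 0 h but not with each other, and the uninjured sections themselves differed widely. The group means were 92.4 ± 48.9 CPM (SD, n = 3), 447 ± 38.2 (n = 2), 147 ± 93.2 (n = 2) and 43.9 ± 19.4 (n = 4). The log2 fold change was 2.27 ± 0.55 (SE) at 24 h (adjusted p = 0.00838), and it stayed called under all 18 alternatives, at 1.64 to 2.92. At 36 h it was 0.67 ± 0.54 (adjusted p = 0.376) and went to -0.19 without section 36 h A. At 48 h it was -1.07 ± 0.46 and not called (adjusted p = 0.0825), although it was called without section 0 h 4 (-1.42, adjusted p = 0.0295) or without 48 h A (-1.40, adjusted p = 0.0371). From 24 h to 48 h Cyp2a5 fell 10.2-fold (log2 fold change -3.35 ± 0.51, adjusted p = 0.00146), which was called under all 20 alternatives. Its close copy Cyp2a4 also rose at 24 h, from a mean of 0.220 to 5.96 CPM (log2 fold change 4.67, adjusted p = 0.00401), with 10.8 CPM in section 24 h A and 1.08 in 24 h B, and reads of the copies cannot be told apart where their windows are shared.

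Cyp2a12, a steroid hydroxylase, and Cyp2d26, a further member of the Cyp2d cluster, had the smallest fold changes of the 8 at all 3 times. Cyp2a12 stood at 424, 462 and 512 CPM at 0 h, at 419.7 and 539.7 at 24 h, at 414 and 454 at 36 h and at 391, 392, 361 and 323 at 48 h. The 48 h sections lay below all uninjured sections, and the other times overlapped with them. Its log2 fold change at 48 h was -0.34 ± 0.12 (adjusted p = 0.0379), but total-count scaling turned it to 0.18, hepatocyte-rich spots alone gave -0.08 (adjusted p = 0.702), and the call was also lost without section 0 h 3, 0 h 4, 48 h C or 48 h D (-0.35 to -0.28). At 24 h and 36 h it was 0.04 and -0.10 (adjusted p = 0.839 and 0.620), and leaving out 0 h 2 or 24 h B turned the 24 h value to -0.06 or -0.15. With total-count scaling Cyp2a12 was instead called higher at 24 h (0.37, adjusted p = 0.0449), and so it was with scaling to 6 hepatocyte secretory genes, Alb, Apoa1, Apoa2, Apoc3, Ttr and Trf (0.66, adjusted p = 0.00295). These scalings moved the median of all genes tested at 24 h to 0.37 and 0.67, so Cyp2a12 lay near that median. With them 51.2% and 61.1% of all genes were called in either direction.

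Cyp2d26 stood at 938, 884 and 928 CPM at 0 h, at 977 and 998 at 24 h, at 832 and 895 at 36 h and at 893, 745, 729.8 and 693 at 48 h. The 24 h sections lay just above the uninjured ones and the later times overlapped with them. Its log2 fold changes were 0.11 ± 0.12, -0.09 ± 0.12 and -0.26 ± 0.10 (adjusted p = 0.512, 0.632 and 0.0612). With total UMIs as the scale it was higher at all 3 times (0.43, 0.35 and 0.27, adjusted p = 0.0118, 0.0323 and 0.0396), and likewise with the 6 hepatocyte genes as the scale (0.73, 0.40 and 0.33, adjusted p = 0.000914, 0.0382 and 0.0299). Total UMIs moved the median of all genes to 0.37, 0.49 and 0.54, and the 6 hepatocyte genes moved it to 0.67, 0.53 and 0.61. Relative to the other genes, Cyp2d26 was thus near them at 24 h and below them later with either scale.

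Cyp2f2, the portal naphthalene P450, had the lowest log2 fold change of the 8 at each time in the fit over all spots. It stood at 1339.6, 1369 and 1580.2 CPM in the uninjured sections. At 24 h it stood at 268 and 214.5 CPM, at 36 h at 515 and 350.1 CPM, and at 48 h at 440.2, 519.9, 353 and 655 CPM. No injured section came near the uninjured range, and the 24 h sections lay below all later ones. The log2 fold changes were -2.57 ± 0.27 (5.92-fold lower, adjusted p = 8.68e-05), -1.72 ± 0.26 (adjusted p = 0.00148) and -1.54 ± 0.20 (adjusted p = 0.000233), all called under each of the 18 alternatives. Between 24 h and 48 h Cyp2f2 rose 2.04-fold (log2 fold change 1.03 ± 0.24, adjusted p = 0.00902). The call was lost without section 24 h B (0.88) and with the section letter as a block (1.01, adjusted p = 0.0628).

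Cyp2d9, the male-typical steroid hydroxylase, was lower at all 3 times. It stood at 1305, 1454 and 1279 CPM at 0 h, at 477 and 432 at 24 h, at 875 and 525 at 36 h and at 413, 428, 529.9 and 723 at 48 h. Every injured section lay below every uninjured one, with 36 h A and 48 h D the highest of the injured sections. The log2 fold changes were -1.57 ± 0.27 at 24 h (adjusted p = 0.00116) and -1.36 ± 0.21 at 48 h (adjusted p = 0.000585). Both were called under all 18 alternatives, at -1.64 to -0.94 and at -1.56 to -0.76. At 36 h the value was -0.94 ± 0.26 (adjusted p = 0.0223), and the call was lost without 36 h B (-0.62, adjusted p = 0.159), without 0 h 2 (adjusted p = 0.0542) and without 0 h 3 (adjusted p = 0.0668). It was also lost with total-count scaling (-0.50, adjusted p = 0.143), with scaling to the 6 hepatocyte genes (-0.43, adjusted p = 0.249) and in hepatocyte-rich spots (-0.77, adjusted p = 0.0597).

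Cyp2d10, its nearest relative among the 8, was tighter between sections. It stood at 833, 877 and 846 CPM at 0 h, at 527 and 443 at 24 h, at 569.8 and 529.8 at 36 h and at 363, 323, 342 and 409.5 at 48 h. The uninjured sections lay above all injured ones, and the 48 h sections below all others. The log2 fold changes were -0.81 ± 0.13, -0.63 ± 0.13 and -1.25 ± 0.11 (adjusted p = 0.000812, 0.00600 and 2.67e-05). The 48 h call held under all 18 alternatives, at -1.31 to -0.65. Scaling to the 6 hepatocyte genes left -0.18 at 24 h and -0.14 at 36 h, neither called. Total-count scaling left -0.19 at 36 h (adjusted p = 0.252).

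Cyp2d22 was lowest at 24 h and stood higher again at the later times. It stood at 211, 228 and 185 CPM at 0 h, at 100.5 and 97.3 at 24 h, at 168 and 174 at 36 h and at 146, 132, 128 and 127 at 48 h. The 4 times did not overlap, in the order 24 h, 48 h, 36 h and 0 h from low to high. The log2 fold change was -1.07 ± 0.12 at 24 h (adjusted p = 0.000109) and -0.64 ± 0.10 at 48 h (adjusted p = 0.000466). The 24 h value was called under all 18 alternatives, at -1.19 to -0.45. The 36 h value of -0.28 ± 0.12 was not called (adjusted p = 0.0896) except with DESeq2 or without 0 h 4, and it was 0.15 with total-count scaling. That scaling also took the 48 h value to -0.12 (adjusted p = 0.338), and scaling to the 6 hepatocyte genes took it to -0.046 (adjusted p = 0.751).

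Cyp2b10, the phenobarbital-inducible gene, was scarce in every section. It had 48, 66 and 17 UMIs in the uninjured sections, 9 and 11 after 24 h, 68 and 29 after 36 h and 20, 19, 8 and 36 after 48 h. Scaled, this made 1.06, 1.21 and 0.480 CPM at 0 h, 0.194 and 0.351 CPM after 24 h, 1.97 and 0.828 CPM after 36 h and 0.290, 0.382, 0.115 and 0.520 CPM after 48 h. Its 24 h sections lay below the uninjured ones, the 36 h sections overlapped with them, and the 48 h sections were below them except that 48 h D lay above 0 h 4. The log2 fold change was -1.80 ± 0.67 at 24 h (adjusted p = 0.0520) and -1.51 ± 0.49 at 48 h (adjusted p = 0.0295). The 48 h call was lost without 0 h 2, 0 h 3, 48 h A or 48 h C (-1.46 to -1.22) and with total-count scaling (-0.99, adjusted p = 0.101). It was also lost with scaling to the 6 hepatocyte genes (-0.93, adjusted p = 0.106) and in hepatocyte-rich spots (-1.30, adjusted p = 0.0642), and 8 of 18 alternatives called the 24 h value.

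**Figure D2:**
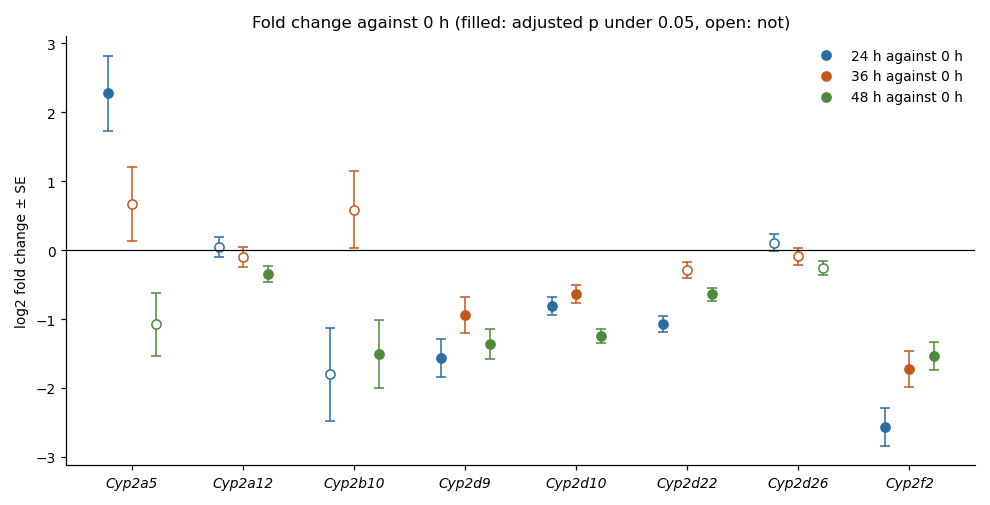
Log2 fold change against 0 h (y axis, edgeR with TMM scaling, whiskers ± SE) of the 8 genes (x axis) at 24 h, 36 h and 48 h, with filled points for an adjusted p under 0.05 and open points otherwise. With this scaling Cyp2a5 is the only filled point above 0 (2.27 at 24 h), which other scalings change for Cyp2a12 and Cyp2d26, and Cyp2f2 has the lowest point (-2.57 at 24 h).

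Markers of other cell types moved with these comparisons. The 7 hepatocyte markers summed to 155337 to 164580 CPM at 0 h and 99475 to 106932 CPM at 24 h, with 5 of 7 called lower at 24 h and 1 higher. The 4 neutrophil markers, all called higher at all 3 times, summed to a median of 6.16 CPM at 0 h and to 25.1 to 142 CPM in the injured sections. The 6 mesenchyme markers summed to 245 to 281 CPM at 0 h and 659.7 to 1457 CPM at 48 h, with 5 called higher. The 6 Kupffer cell and macrophage markers summed to 609 to 659.9 CPM at 0 h and 869.6 to 1565 CPM at 48 h, with 3 called higher. The largest rise in mean CPM among them was that of Lyz2 (196 and 643). The mean of Csf1r changed little (71.0 and 74.6), and that of the Kupffer cell marker Clec4f was lower (157 and 125). The 4 bile duct markers summed to 5.26 to 6.98 CPM at 0 h and 13.7 to 24.4 CPM at 24 h, with 1 called higher. Their rise came from Sox9, at a mean of 2.31 CPM at 0 h and 15.8 at 24 h. The means of Epcam (1.58 and 1.08) and Krt19 (1.58 and 1.25) were lower at 24 h, and that of Krt7 changed little (0.716 and 0.878). The 5 endothelial markers summed to 248 to 274 CPM at 0 h and 160.8 to 162 CPM at 24 h, with 2 called lower. Means of Clec4g (115 and 41.8), Kdr (48.7 and 18.6) and Stab2 (56.7 and 47.5) were lower at 24 h. Those of Pecam1 (17.7 and 21.7) and Cdh5 (25.2 and 32.0) were higher. Mitochondrial UMIs made up at least 4.10% of a section at 0 h, 1.94% to 2.37% at 24 h, 1.80% to 4.53% at 36 h and 2.35% to 3.06% at 48 h. The part of these in the changes of the 8 genes was not tested. The restriction to hepatocyte-rich spots described next cannot test it, because it picks spots by 6 secretory genes whose own levels changed. Means of Alb (66575 CPM at 0 h and 48570 at 24 h), Apoa1, Apoa2, Apoc3 and Ttr were lower at 24 h. That of Trf was higher (10073 and 14781 CPM).

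In spots rich in hepatocyte RNA, Cyp2f2, Cyp2d9, Cyp2d10 and Cyp2d22 were still lower and Cyp2a5 still higher at 24 h. A spot counted as rich when the 6 secretory genes made up at least 10.4% of its UMIs, which held for 85.9% to 94.6% of spots at 0 h, 40.9% and 52.1% at 24 h and 65.0% to 85.8% later. In rich spots the 24 h log2 fold changes were -2.13 for Cyp2f2, -1.44 for Cyp2d9, -0.61 for Cyp2d10 and -0.88 for Cyp2d22 (adjusted p = 0.000282, 0.00267, 0.00562 and 0.000665). Cyp2a5 rose by 1.64 there (adjusted p = 0.0343). Cyp2b10 was also called lower there (adjusted p = 0.00765), at 0 and 0.0596 CPM at 24 h against 1.04, 1.12 and 0.485 CPM at 0 h, and its fitted fold change rests on a section at 0 and is no bound. At 48 h Cyp2d26 stood at 878 ± 113 CPM in rich spots against 866 ± 26.7 at 0 h, and Cyp2a12 at 429.8 ± 46.4 against 453 ± 53.0 (SD, n = 4 and 3).

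Cyp2a5 RNA was denser outside the hepatocyte-rich spots in all 11 sections. At 24 h it made up 223 and 189.8 plain CPM in rich spots and 695 and 696 in the other spots. At 0 h it made up 94.4, 59.4 and 22.1 plain CPM in rich spots and 486, 275 and 122 in the others. The ratio of rich to other spots ran from 0.18 to 0.68 for Cyp2a5 over the 11 sections, from 1.65 to 3.26 for Cyp2f2 and from 1.36 to 2.33 for Cyp2a12. The share of secretory RNA itself falls towards the central vein at 0 h, where the 7 hepatocyte markers summed to 137110 CPM in the most portal spots and 106656 in the most central ones, so other spots at 0 h are not spots without hepatocytes. This split of the sections was chosen after the values of the genes were seen.

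Between injured times, the order of levels differed from gene to gene. From 24 h to 36 h 2 of the 8 genes were called, both higher, against 15.6% of all genes (7.04% higher and 8.58% lower). The sections did not overlap for 7 of the 8 genes, against 54.1% of all genes. Cyp2d22 rose by 0.79 ± 0.13 (adjusted p = 0.00593), a call lost in a fit of the 24 h and 36 h sections alone (adjusted p = 0.140). Cyp2b10 rose by 2.39 ± 0.71 (adjusted p = 0.0452) on 20 UMIs at 24 h and 97 at 36 h, and this call was lost without any one of 0 h 2, 0 h 3, 24 h A, 24 h B, 36 h A, 48 h A and 48 h B (1.64 to 2.84, adjusted p = 0.0576 to 0.228).

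From 36 h to 48 h only Cyp2d10 was called, against 3.05% of all genes (1.62% higher and 1.43% lower), and the sections did not overlap for 5 of the 8 genes, against 25.7%. Cyp2d10 fell by 0.61 ± 0.12 (adjusted p = 0.0260). The call was lost without any one of 0 h 2, 0 h 3, 0 h 4, 36 h A, 48 h B and 48 h C (-0.61 to -0.56, adjusted p = 0.0532 to 0.0758).

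From 24 h to 48 h 6 genes were called, 2 higher and 4 lower, against 34.1% of all genes (16.2% higher and 17.8% lower). The sections did not overlap for 6 of the 8 genes, against 54.8% of all genes. Beside Cyp2a5 and Cyp2f2, Cyp2d22 was higher by 0.43 ± 0.11 (adjusted p = 0.0138), a call lost without 24 h A or 24 h B (0.45 and 0.41). It was also lost with scaling to the 6 hepatocyte genes (0.40, adjusted p = 0.0557) and with the section letter as a block (0.49, adjusted p = 0.116). Cyp2d10 was lower by 0.43 ± 0.12 (log2 fold change -0.43, adjusted p = 0.0181) and kept its call in 15 of 20 alternatives. The call was lost without 24 h A (-0.31) and with total-count scaling (-0.23, adjusted p = 0.175). Scaling to the 6 hepatocyte genes (-0.47, adjusted p = 0.0536) also lost it. So did the 8 injured sections alone, with the section letter as a block (-0.50, adjusted p = 0.127) or without it (-0.42, adjusted p = 0.0532). Cyp2a12 (-0.39 ± 0.13, adjusted p = 0.0469) and Cyp2d26 (-0.37 ± 0.12, adjusted p = 0.0314) kept their calls in 4 and 6 of 20 alternatives. Cyp2a12 lost its call without any one section other than 24 h A and 36 h A, down to -0.19 without 24 h B. Cyp2d26 lost its call without any one 0 h or 24 h section or without 48 h B, 48 h C or 48 h D (-0.39 to -0.32).

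In uninjured liver the same genes divided along the lobule. Spots of each 0 h section were ranked by a zonation score from 22 central and 11 portal genes of the study's lists and cut into 5 zones of equal spot number from 1 (portal) to 5 (central). The study lists Cyp2d9 as central and Cyp2f2 as portal, and although both were left out of the score here, their direction is not independent of that choice. Genes outside the lists followed the zones, with 4 of 4 further central genes (such as Glul, log2 fold change 2.29 between zones 5 and 1) higher and 8 of 8 further portal genes (such as Cdh1, -1.92) lower in zone 5. Of the 8 P450 genes, 7 were called between zones 5 and 1, 3 higher and 4 lower, against 25.8% of the 11930 genes tested (12.6% higher and 13.3% lower). The p-values rest on pools from 3 sections, where an exact test over sections cannot go below p = 0.25 (two-sided), so the ratio in each section is given beside them. Zone levels have their own TMM scale and are not set beside section levels.

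Cyp2a5 had the steepest central gradient of the 8, with zone means of 22.6, 34.5, 46.1, 80.5 and 172 CPM from zone 1 to zone 5. Its ratio of zone 5 to zone 1 was 7.21, 7.41 and 9.59 in the 3 sections (log2 fold change 2.93 ± 0.10, adjusted p = 7.29e-09). It rose over all 5 zones in each section, although the sections differed in level, from 87.5 to 253 CPM in zone 5. Cyp2d9 rose more gently, from 878 ± 56.6 to 1229 ± 113 CPM, with ratios of 1.43, 1.44 and 1.34 (log2 fold change 0.49 ± 0.02, adjusted p = 8.13e-46). Both gradients were called under all 11 alternatives.

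Cyp2f2 ran the other way, from 1722 ± 123 CPM in zone 1 over 1499, 1162 and 807 to 509.5 ± 54.0 in zone 5. Its ratio was 0.287, 0.293 and 0.307 (log2 fold change -1.76 ± 0.05, adjusted p = 2.28e-09). Cyp2a12 also fell at every step, from 467 ± 46.7 to 257 ± 21.1 CPM, with ratios of 0.536, 0.601 and 0.520 (log2 fold change -0.86 ± 0.03, adjusted p = 2.25e-29). The pair of Cyp2a genes thus had opposite gradients, and both portal gradients were called under all 11 alternatives. Bile duct markers, 4 in all, fell from 9.70 to 1.94 CPM between zones 1 and 5, and leaving out spots with UMIs of Epcam, Krt19 or Krt7, which are 3 of these markers, left all 7 calls in place.

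The other Cyp2d genes were nearly flat. Cyp2d26 fell from 764 ± 25.3 to 687 ± 17.7 CPM (ratios 0.900, 0.909 and 0.886, adjusted p = 8.04e-10). Cyp2d10 was highest in zone 4 on average and had ratios of 1.03, 1.11 and 1.07 (adjusted p = 0.000124), a call lost without 0 h 3 (log2 fold change 0.07 against 0.10, adjusted p = 0.0660), with spots thinned to equal depth (0.095, adjusted p = 0.330) and without the section block (0.10, adjusted p = 0.272). Cyp2d22 had ratios of 1.02, 1.07 and 1.05 and was not called (log2 fold change 0.07 ± 0.03, adjusted p = 0.100) except with total-count scaling. Cyp2b10 was lower in zone 5 in all 3 sections (ratios 0.188, 0.692 and 0.607, adjusted p = 0.0162) on 22, 21 and 5 UMIs in zone 1 and 4, 16 and 3 in zone 5, and the call was lost without 0 h 2 (log2 fold change -0.55, adjusted p = 0.474), while without 0 h 3 it was -1.86, and DESeq2 did not call it (adjusted p = 0.175).

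**Figure D3:**
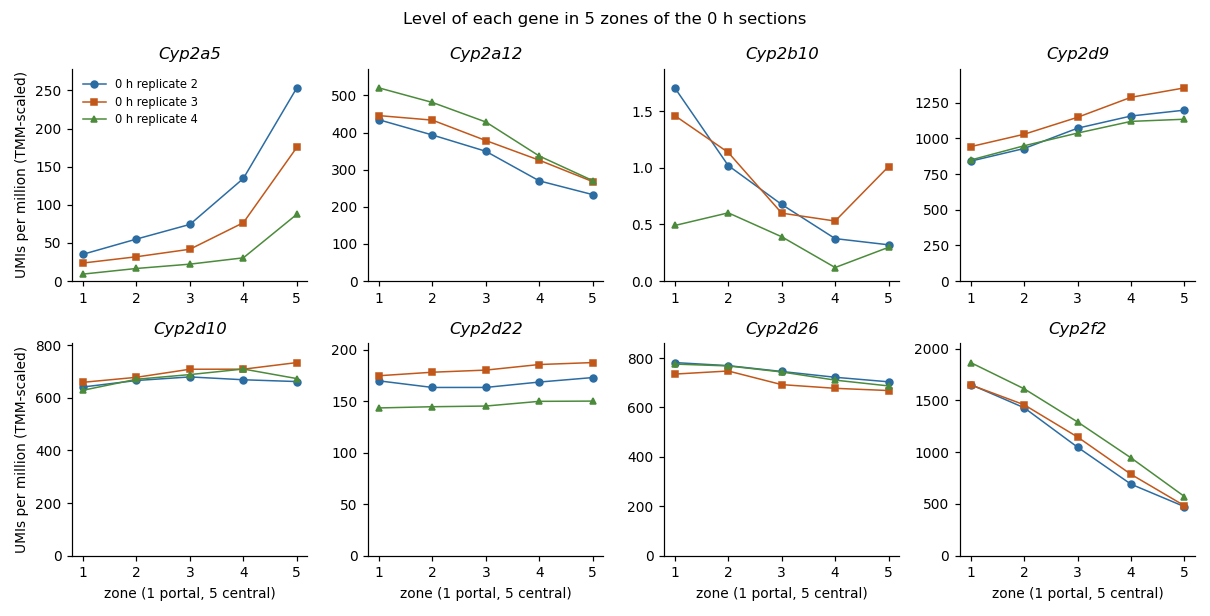
Level of each gene (y axis, TMM-scaled CPM, from 0) in zones 1 (portal) to 5 (central) of the uninjured liver (x axis), with 1 line per 0 h section. Cyp2a5 climbs to 87.5 to 253 CPM in zone 5, Cyp2f2 and Cyp2a12 descend, and Cyp2d10, Cyp2d22 and Cyp2d26 are nearly level.

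Set beside the zones of uninjured liver, several injured sections lay outside the whole zonal range. The 15 zone pools of Cyp2a5 reached 263 plain CPM at most, and both 24 h sections were above that, at 413 and 479. Cyp2f2 was at 491 plain CPM in its lowest, most central pool, and 4 of 8 injured sections lay below it, the 24 h sections at 211 and 271. For Cyp2d9 and for Cyp2d10, 7 of 8 injured sections lay below the lowest pool (831 and 615 plain CPM), and for Cyp2d22 the 2 sections at 24 h did (95.6 and 101.5 against 139). For Cyp2d26 all 8 injured sections lay above the highest pool on this scale. This scale moved the median of all genes up after injury, as given for Cyp2d26 above, and no test was made.

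**Figure D4:**
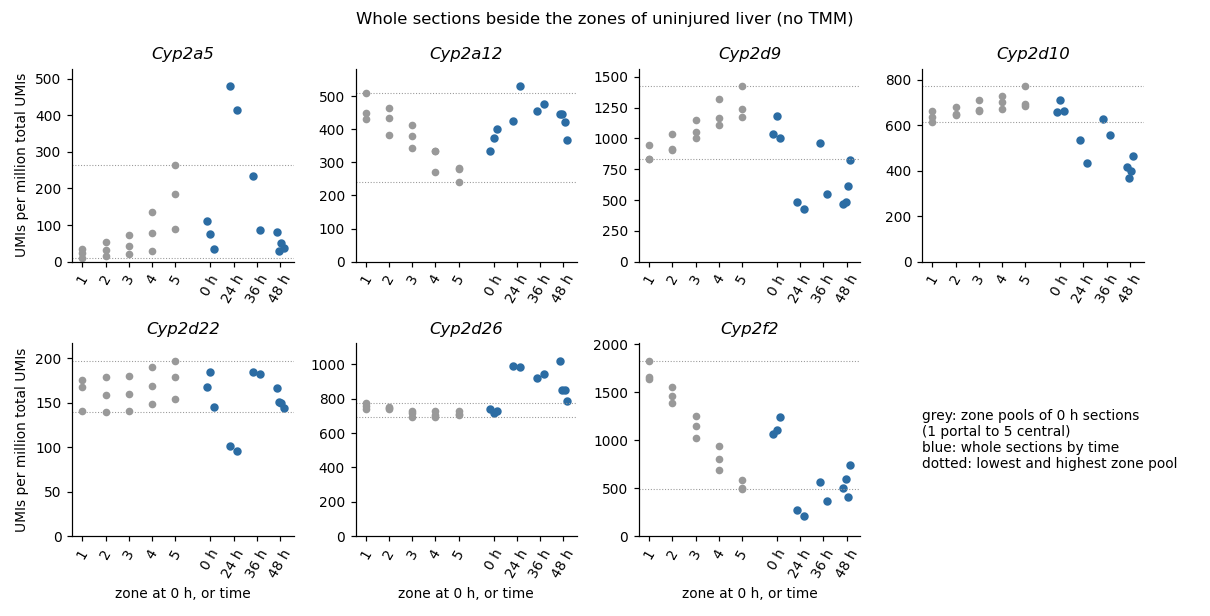
Plain CPM (y axis, from 0) of 7 of the genes in the 15 zone pools of the 0 h sections (grey, zones 1 to 5) and in whole sections by time (blue), with dotted lines at the lowest and highest zone pool. Both 24 h points of Cyp2a5 (413 and 479) lie above the upper line, and both 24 h points of Cyp2f2 (211 and 271) lie below the lower line.

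Over the 11 sections, the pairs of the 8 genes with the most and the least alike pattern were Cyp2d9 with Cyp2f2 (Pearson r of log2 CPM 0.895) and Cyp2a5 with Cyp2f2 (-0.411). Over the 8 injured sections alone the most alike pair was Cyp2a5 with Cyp2d26 (0.857) and the least alike Cyp2d26 with Cyp2f2 (-0.792), while Cyp2d9 with Cyp2f2 stood at 0.530. Cyp2d9 and Cyp2f2 have opposite gradients along the lobule at 0 h. Among all genes tested outside the Cyp2 family, the one most like Cyp2a5 over the sections was Blvrb (r = 0.952), which encodes a biliverdin reductase. The gene most like Cyp2f2 was Cyp4v3 (0.993), and those most like Cyp2d9, Cyp2d10 and Cyp2d22 were Abcg2 (0.976), Pex16 (0.987) and Slc25a13 (0.983). Cyp2d26 was most like the proteasome gene Psmb4 (0.948), Cyp2a12 most like Hip1r (0.893) and Cyp2b10 most like Fgd6 (0.914). Over the 15 zone pools the gene most like Cyp2a5 was Idh1 (0.986), the one most like Cyp2a12 was Serpina1d (0.983) and the one most like Cyp2d22 was Hacl1 (0.990). These are descriptions over sections that share time points or over pools that share libraries.

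The other genes of the subfamilies were mostly scarce. Of 13 further Cyp2a, Cyp2b, Cyp2d, Cyp2g, Cyp2s and Cyp2t genes in the matrices, 8 were tested. At 24 h 2 of them rose and 2 fell, at 36 h 2 rose and 1 fell, and at 48 h none rose and 2 fell, against 41.7%, 29.2% and 44.2% of all genes called in either direction. The abundant one was Cyp2d40, of the Cyp2d cluster, at 218, 174 and 214 CPM at 0 h and at a mean of 116, 89.1 and 35.5 CPM at the 3 later times. Its log2 fold changes were -0.80, -1.18 and -2.51 (adjusted p = 0.0578, 0.0182 and 6.61e-05), so it was called lower at 36 h and 48 h, and at 0 h it was higher in zone 5 than in zone 1 (0.48, adjusted p = 0.000157). Cyp2a22 rose at 24 h (0.348 to 1.91 CPM), Cyp2s1 at 36 h (0.188 to 1.36 CPM), and Cyp2g1 fell at 24 h and 48 h from 0.438 CPM at 0 h.

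Among 7 genes of electron supply and haem, 1 rose and 4 fell at 24 h, 2 rose and 2 fell at 36 h, and 2 rose and 4 fell at 48 h, beside the same shares of all genes (41.7%, 29.2% and 44.2%). Por, the P450 reductase, stood at 85.4 CPM at 0 h and rose at 36 h (366 CPM, log2 fold change 2.10) and 48 h (196 CPM, 1.20). Cyb5a, which encodes cytochrome b5 itself, averaged 1955 ± 202 CPM at 0 h against 1047 ± 247 CPM at 24 h, and 1483 ± 362 and 2141 ± 332 CPM at the later times (SD, n = 3, 2, 2 and 4). It was called lower at 24 h only (-0.90, -0.40 and 0.13, adjusted p = 0.00618, 0.167 and 0.562). Cyb5b and Cyb5r3, of the same system, were lower at all 3 times (log2 fold changes -1.36, -1.22 and -1.07, and -0.85, -0.69 and -1.11). Hmox1, which degrades haem, rose at all 3 times (2.39, 1.47 and 2.30). Alas1, the first enzyme of haem synthesis, was lower at 48 h (-1.78, adjusted p = 0.0339).

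Of 16 nuclear receptors and transcription factors known from P450 regulation, 4 fell at 24 h, 3 rose and 2 fell at 36 h, and 3 rose and 6 fell at 48 h, while 41.7%, 29.2% and 44.2% of all genes were called in either direction. Stat5b, which carries the growth hormone signal, was lower at all 3 times (log2 fold changes -0.90, -0.97 and -0.76). Nr1i3, the receptor CAR, rose at 36 h and 48 h (0.71 and 0.48), and Hnf4a was called at none (-0.10, 0.13 and -0.28). Nfe2l2, the antioxidant factor NRF2, was lower at 24 h (-0.50, adjusted p = 0.0404) and higher at 48 h (0.40). Dbp and Tef, PAR bZIP factors of the circadian clock, rose at 36 h (3.11 and 2.43) and were called at neither 24 h nor 48 h. The hour of day at which livers were taken is not given in the sources used here, and the part of these factors in the levels of the 8 genes was not tested.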

How the data were processed

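Spatial transcriptomics (10x Visium) was carried out by the authors on snap-frozen mouse liver sections, and the deposited matrices hold raw UMI counts per gene and spot barcode, not normalised (31053 genes and 4992 barcodes per section, build mm10). The submitters' processing notes list Space Ranger 1.0.0 and Seurat 4.1.1, whose roles in making these matrices are not given there.

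Here, spots under 800 genes or with over 20% mitochondrial UMIs were left out, and counts were summed per section. The 11 sections were grouped by the time in the labels and compared with edgeR 4.0.16 (R 4.3.3) by the quasi-likelihood test with filterByExpr, TMM scaling and robust dispersion, fitted to all sections. P-values were adjusted by Benjamini-Hochberg over all genes tested and called at 0.05. All 6 comparisons between times were made. For zones at 0 h, spots were thinned to 2000 UMIs for the score central/(central + portal), and zone 5 was tested against zone 1 on the unthinned sums with section as a block. Where a value is a mean, it is ± SD over n sections. Alternatives were total-count scaling, scaling to 6 hepatocyte secretory genes, DESeq2 1.42.0, no filter on low counts, fits of the compared groups alone, every spot under the tissue mask, hepatocyte-rich spots alone, the section letter as a replicate block and leaving out each section. For zones they were 3 zones, textbook markers, no spots with bile duct UMIs, thinned spots and no block.

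The genes and gene lists were chosen with earlier results of these data known. Named genes were the 8 genes, genes of the counted lists, and those with the highest correlation of log2 CPM to each gene. Positions and shared 90-base windows (last 500 bases of GENCODE vM21 transcript 201, exact matches) were computed with Biopython 1.88. Scripts were tested on simulated data. Of simulated log2 changes of 1, 54 of 107 were recovered at 24 h, 70 of 107 at 48 h and 96 of 106 between zones. For changes of 2 it was 77 of 93, 86 of 93 and 91 of 94. False calls made up 7.09%, 4.88% and 5.08% of calls. A gene that was not called may thus still have changed. Depth was high for all genes but Cyp2b10, whose precision is limited by its UMIs, and TMM and pooling by section do not remove differences in cell composition.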

Additional observations from a re-analysis of the deposited data

Results flagged for a closer look

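Levels at 1 injured time differed from those at another in 9 cases among the 8 genes, each tested in the fit of all sections. From 24 h to 48 h the log2 fold change was -3.35 for Cyp2a5, 1.03 for Cyp2f2, 0.43 for Cyp2d22, -0.43 for Cyp2d10, -0.39 for Cyp2a12 and -0.37 for Cyp2d26. From 24 h to 36 h it was 2.39 for Cyp2b10 and 0.79 for Cyp2d22. From 36 h to 48 h it was -0.61 for Cyp2d10. Of these, the change in Cyp2a5 was called under all 20 alternatives, while those of Cyp2a12 and Cyp2d26 were called under 4 and 6. The methods give 1 mouse for each time point and the labels name no mouse for a section, so time and mouse cannot be told apart in any of them. Among the 4 sections at 48 h, no section stood apart from the other 3 by Dixon's test for any of the 8 genes.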

How the results depend on the processing

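Rises and falls of over 2-fold against 0 h were called for Cyp2a5, Cyp2d22, Cyp2d9 and Cyp2f2 at 24 h and for Cyp2f2 at 36 h. At 48 h they were called for Cyp2d9, Cyp2d10, Cyp2f2 and Cyp2b10. The fall of Cyp2b10 was called under 11 of 18 alternatives, and the others under all 18. Not all stayed over 2-fold. The smallest falls were -0.45 for Cyp2d22 and -0.94 for Cyp2d9 at 24 h. At 48 h they were -0.76, -0.65 and -0.95 for Cyp2d9, Cyp2d10 and Cyp2f2. Of 999 values of single genes over all alternatives, 852 kept direction and side of the threshold, 94 lost the call, 31 gained it and 22 changed sign. Total-count scaling gave 0.33 and 0.18 for Cyp2a12 at 36 h and 48 h against 0 h, 0.15 for Cyp2d22 at 36 h and 0.35 and 0.27 for Cyp2d26. Hepatocyte-gene scaling gave 0.38 and 0.25, 0.20, and 0.40 and 0.33 for the same. These values lay below the median of all genes at 36 h and 48 h. That median was 0.49 and 0.54 with total-count scaling and 0.53 and 0.61 with hepatocyte-gene scaling. Hepatocyte-rich spots alone gave 0.034 for Cyp2a12 at 36 h and 0.060 and 0.020 for Cyp2d26 at 36 h and 48 h. The number of the 8 genes called from 24 h to 48 h, 6 as reported, was 3 with either scaling. From 36 h to 48 h, 1 as reported, it was 4 with DESeq2, and 0 with hepatocyte-gene scaling, with hepatocyte-rich spots and in the fit of those groups alone, which also gave 0 from 24 h to 36 h (2 as reported).

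Whether section letters pair the sections could not be decided. Deviations of same-letter sections correlated at 0.29 between 24 h and 36 h and at -0.12 between 24 h and 48 h. Between 36 h and 48 h they correlated at 0.074 and -0.24. With only sections A and B at 24 h and at 36 h, the deviation of A mirrors that of B. Their correlations are thus not separate values, and no reference for unpaired sections was made. With the letter as a replicate block over the 8 injured sections, 0, 0 and 1 of the 8 genes were called from 24 h to 36 h, 36 h to 48 h and 24 h to 48 h, and Cyp2d9 went to -0.11 from 24 h to 48 h. The same 8 sections without the letter term, a setting chosen after seeing the data, gave 1, 0 and 3. Between zones, leaving out the section block left 4 calls of 7. No block was possible against 0 h, because those sections carry numbers and the others letters.

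Leaving out 1 section at a time gave 5 to 6 calls at 24 h, 2 to 4 at 36 h and 4 to 7 at 48 h against 0 h, 1 to 3 from 24 h to 36 h, 0 to 3 from 36 h to 48 h, 2 to 6 from 24 h to 48 h and 6 to 7 between zones. It changed signs for Cyp2a12 at 24 h (-0.15 to 0.21) and from 24 h to 36 h (-0.32 to 0.047), for Cyp2a5 (-0.19 to 1.20) and Cyp2b10 (-0.17 to 1.08) at 36 h, for Cyp2f2 from 36 h to 48 h (-0.072 to 0.49) and for Cyp2b10 from 24 h to 48 h (-0.11 to 0.74), none of them called. Causes of these changes were not tested. Depth limits Cyp2b10 alone, with 8 to 68 UMIs a section.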
